A study of Arabidopsis thaliana with 9 samples.

Results

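The cytochrome P450 genes of Arabidopsis thaliana were followed in whole seedlings, roots included, on Affymetrix ATH1 arrays. Members were all genes whose symbol starts with CYP, 2 or 3 digits and a capital letter and that the probe annotation lists with a probe set of their own. This rule gave 23 genes, each with 1 probe set, of 13356 genes with a probe set of their own. RefSeq lists 236 genes with such a symbol, so most of the family was not analysed here. Of the 23 members, 19 belong to the subfamily CYP71B, for which RefSeq lists 36 genes. The other 4 are CYP78A9, CYP79A2, CYP84A4 and CYP51G2. By clan, the broadest grouping of plant P450 enzymes, 22 members fall in clan 71 and CYP51G2 alone falls in clan 51.

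The arrays came from 3 groups of wild-type seedlings that were 10 days old when treated. They comprised 2 arrays of the accession WS (given as WS2 in one label) after 24 h at 4 °C, 5 of Col-0 after 24 h at 4 °C, and 2 of Col-0 that were moved to a new chamber at 22 °C as the mock treatment. All had grown at 22 °C in constant light of about 60 to 80 microE on Gamborg's medium without sucrose. Of the cold Col-0 arrays, 2 carry the name set 4 in their titles. No WS array at 22 °C was analysed here, so the cold response within WS could not be measured. Whether replicate arrays stand for separately grown seedlings is not said in the labels, and p-values then measure only the spread between these samples, which may be technical.

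Cytochromes P450 are haem enzymes, mostly anchored in the endoplasmic reticulum, that insert oxygen into small molecules with electrons passed on by an NADPH-dependent reductase. In plants they build and break down hormones, sterols, pigments, wall polymers and defence compounds. CYP71B is a large clan 71 subfamily whose genes often stand side by side on the chromosome. Its best known member makes the defence compound camalexin, and most others have no assigned substrate.

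Values are RMA signals on the log2 scale, in which 1 unit is a doubling. Array medians lay between 5.81 and 6.06, and signals of same-group arrays correlated at 0.979 to 0.993 over the probe sets (which do not count as replicates). The root marker PYK10 gave 11.43 and 12.09 in cold WS, 11.20 to 11.88 in cold Col-0 and 11.66 and 12.21 in Col-0 at 22 °C. The shoot markers LHCB4.2 and CHLM, of the light-harvesting antenna and chlorophyll synthesis, were measured too and, like PYK10, far above the dim range on every array, so both organs were present. Of the other fixed markers, EXPA7 of root hairs and LAT52 of pollen were measured, and the rest were not analysed here.

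Differences were fitted with limma to all 9 arrays and adjusted by Benjamini-Hochberg over 22746 probe sets. A gene was called, and is said to have risen or fallen, at an adjusted p under 0.05 and a log2 difference of at least 1 in either direction. A probe set is termed dim where its mean over the 9 arrays lay under 3.90, the limit below which the dimmest 25% of probe sets fall. That was the case for 11 members, and signal over background was not assessed.

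**Figure D1:**
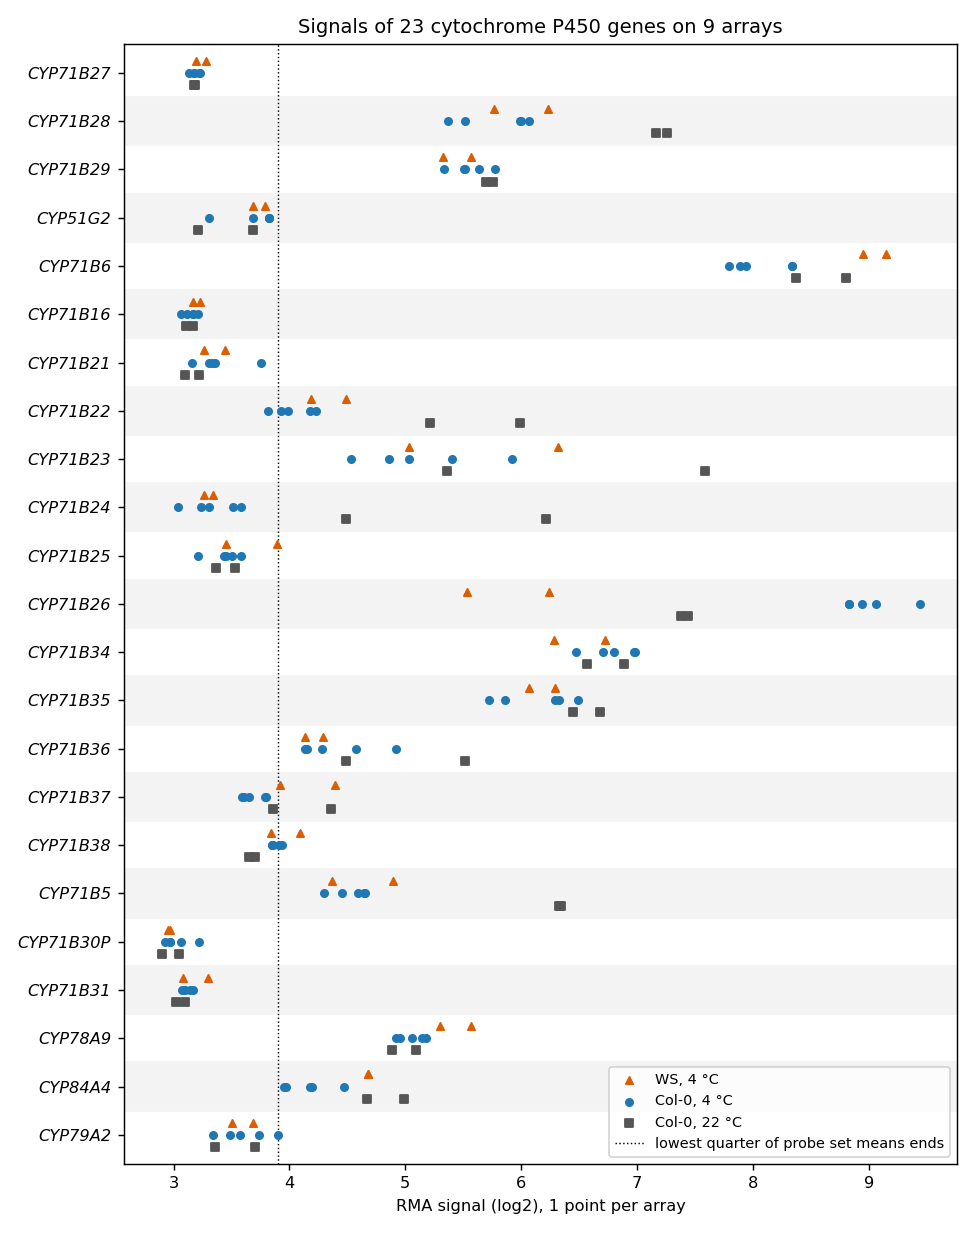
RMA signal (log2, horizontal axis) of each of the 23 P450 genes on each of the 9 arrays, 1 point per array, for WS at 4 °C (triangles), Col-0 at 4 °C (circles) and Col-0 at 22 °C (squares). Genes run down the page in the order of their locus tags, and the dotted line at 3.90 is the limit for dim probe sets. CYP71B26 has its WS arrays left of both Col-0 groups and its cold Col-0 arrays right of them.

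After 24 h of cold, 1 P450 gene rose in Col-0 seedlings and 4 fell, all of them in CYP71B. CYP71B26 rose 3.05-fold, and CYP71B5, CYP71B22, CYP71B28 and CYP71B24 fell, with log2 differences from -2.01 to -1.42. None of these has an assigned substrate. The 5 calls are 21.7% of the members, and 12% of all probe sets were called in the same comparison. At an adjusted p under 0.05 without the minimum size 6 members passed, where 28.5% of all probe sets did. For calls in the lower direction the background was 6.09%, and for the higher direction 5.87%. The median log2 difference was -0.01 over the 23 members and 0.03 over all probe sets.

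CYP71B26 (AT3G26290) gave 8.83, 9.07 and 9.44 in the cold Col-0 arrays without a set name, and 8.94 and 8.83 in the set 4 arrays. At 22 °C it gave 7.38 and 7.44. All cold arrays thus lay above both 22 °C arrays. Its means were 9.02 ± 0.25 (SD, n = 5) in cold Col-0 and 7.41 ± 0.05 (n = 2) at 22 °C, which differ by 1.61 on the log2 scale (SE 0.22, limma adjusted p = 0.000526). The call was kept in 17 of 17 refits, made without single arrays or with other settings, with log2 differences between 1.47 and 1.70. The lower end came from the fit with set 4 as the only cold Col-0 arrays, and the upper end from the fit with set 4 left out.

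CYP71B5 (AT3G53280) had the smallest adjusted p of the members in this comparison. Its signals were 4.46, 4.65 and 4.65 in cold Col-0 without a set name, 4.59 and 4.30 in set 4, and 6.33 and 6.34 at 22 °C. The cold and the 22 °C arrays were far apart for their small spread. Means of 4.53 ± 0.15 (SD, n = 5) in cold Col-0 and 6.33 ± 0.01 (n = 2) at 22 °C put the cold at -1.80 on the log2 scale (SE 0.16, limma adjusted p = 4.88e-05). Leaving out single arrays moved this only between -1.84 and -1.75.

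CYP71B28 (AT1G13090) gave 5.37, 5.99 and 6.06 in cold Col-0 without a set name, 6.0 and 5.52 in set 4, and 7.17 and 7.26 at 22 °C. The ranges did not touch. The means were 5.79 ± 0.32 (SD, n = 5) in cold Col-0 and 7.21 ± 0.07 (n = 2) at 22 °C (log2 -1.42, SE 0.22, limma adjusted p = 0.00106).

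CYP71B22 (AT3G26200) gave 4.18, 3.93 and 3.99 in cold Col-0 without a set name, 3.82 and 4.23 in set 4, and 5.21 and 5.99 at 22 °C. Every cold array was lower than both 22 °C arrays, which themselves differed. The means were 4.03 ± 0.17 (SD, n = 5) in cold Col-0 and 5.60 ± 0.55 (n = 2) at 22 °C (log2 -1.57, SE 0.21, limma adjusted p = 0.00049).

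CYP71B24 (AT3G26230) had 3.24, 3.04 and 3.58 in cold Col-0 without a set name, 3.52 and 3.31 in set 4, and 4.48 and 6.21 at 22 °C. All cold arrays were dim, and the 22 °C arrays lay 1.73 apart. On the log2 scale the cold stood at -2.01 (SE 0.37, limma adjusted p = 0.00294), a 4.03-fold lower signal in the cold. It was 7.35-fold lower without replicate 1 at 22 °C and 2.22-fold lower without replicate 2, so its size depends on those arrays while the call does not. The SE rests on a spread pooled over the 3 groups and understates the spread at 22 °C.

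**Figure D2:**
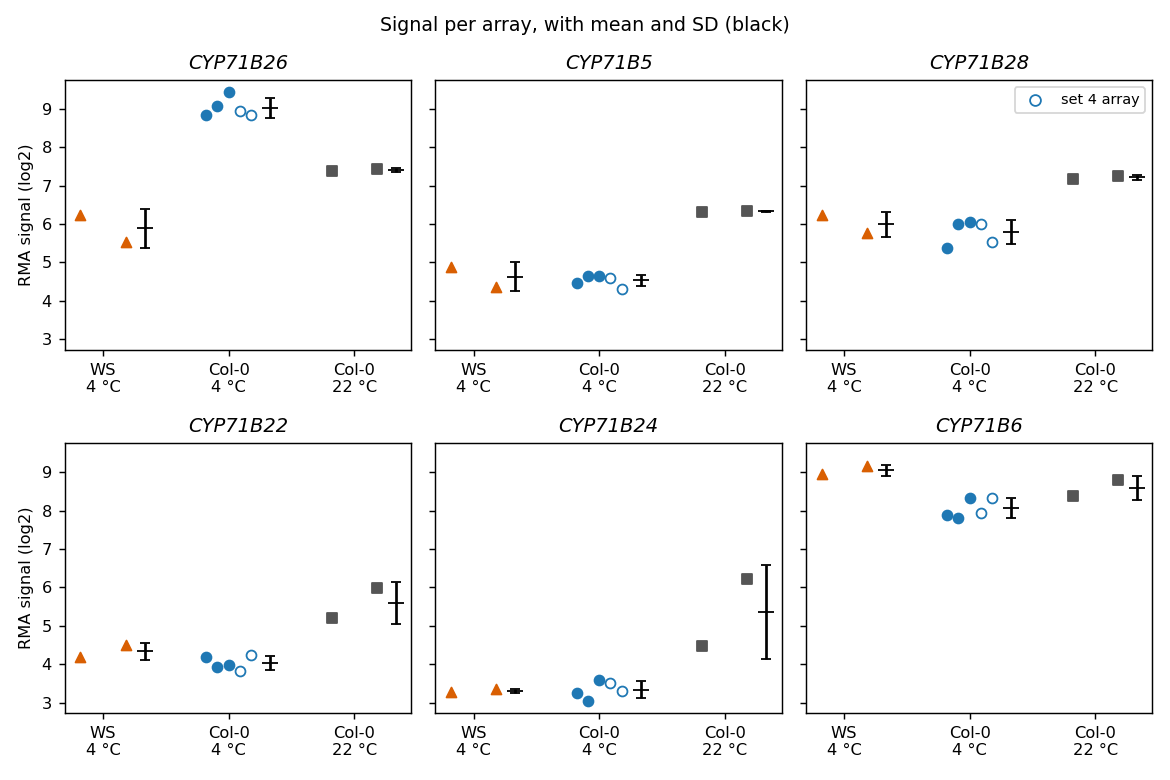
RMA signal (log2, vertical axis) per array of the 5 genes called in the cold and of CYP71B6, for WS at 4 °C (triangles), Col-0 at 4 °C (circles, set 4 arrays open) and Col-0 at 22 °C (squares). Black bars give the mean and SD of each group (n = 2, 5 and 2). In CYP71B5, CYP71B28, CYP71B22 and CYP71B24 both cold groups lie below the 22 °C arrays, whereas in CYP71B26 they lie on opposite sides of them.

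The other 18 members were not called in the cold, with log2 differences between -1.32 and 0.24. CYP71B23 (AT3G26210) was at -1.32 (SE 0.59, limma adjusted p = 0.133). Its signals were 4.53 to 5.92 on the 5 cold Col-0 arrays and 5.36 and 7.59 at 22 °C, so the groups overlapped. Without replicate 1 at 22 °C it was called (log2 -2.44, limma adjusted p = 0.0179), and without replicate 2 the difference was -0.21. CYP71B36 (AT3G26320) depended on the same arrays, at -0.59 with all arrays (limma adjusted p = 0.175), called without replicate 1 at 22 °C (log2 -1.10, limma adjusted p = 0.0305) and at -0.07 without replicate 2.

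CYP71B6 (AT2G24180), which turns indole-3-acetonitrile toward indole carboxylic acid derivatives, gave 7.89, 7.80 and 8.34 in cold Col-0 without a set name, 7.94 and 8.34 in set 4, and 8.37 and 8.80 at 22 °C. The cold arrays lay below those at 22 °C by a narrow margin (log2 -0.53, SE 0.19, limma adjusted p = 0.068). CYP71B34 and CYP71B35, which follow CYP71B26 on the chromosome as the next measured members, had log2 differences of 0.06 (adjusted p = 0.859) and -0.43 (0.171).

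Other members on chromosome 3 were not called in any of the comparisons. CYP71B34 (AT3G26300) gave 6.72 and 6.28 in cold WS, 6.47 to 6.98 in cold Col-0 and 6.57 and 6.89 in Col-0 at 22 °C, with all groups overlapping. CYP71B35 (AT3G26310) gave 6.29 and 6.07 in cold WS, 5.73 to 6.49 in cold Col-0 and 6.68 and 6.45 at 22 °C. CYP71B37 (AT3G26330) gave 3.59 to 3.80 in cold Col-0 and 3.86 and 4.36 at 22 °C, without overlap (log2 -0.42, SE 0.17, limma adjusted p = 0.0951). CYP71B16, CYP71B21 and CYP71B25 were dim on all 9 arrays, with signals of 3.07 to 3.23, 3.10 to 3.75 and 3.21 to 3.89. CYP71B38 (AT3G44250) was dim by its mean, with 3.84 and 4.09 in cold WS, 3.85 to 3.94 in cold Col-0 and 3.70 and 3.65 at 22 °C (log2 0.21 for Col-0 at 4 °C minus 22 °C, limma adjusted p = 0.174).

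In all, 7 members had every cold Col-0 array below both 22 °C arrays, where 19.2% of all probe sets did, and 2 had every one above, where 20.5% did. The 7 were the 4 called lower, CYP71B6, CYP71B37 and CYP84A4, and the 2 were CYP71B26 and CYP71B38. With set 4 against the other cold Col-0 arrays, the members' mean signals differed by -0.23 to 0.30, the first value being that of CYP71B26 and the second that of CYP84A4.

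Outside CYP71B, none of the 4 members was called in the cold. CYP84A4 (AT5G04330), a hydroxylase of the arabidopyrone branch of phenylpropanoid metabolism, came nearest, with 3.95, 3.97, 4.18, 4.19 and 4.47 in cold Col-0 and 4.67 and 4.99 at 22 °C. The groups did not overlap, and the log2 difference of -0.68 (SE 0.16, limma adjusted p = 0.0102) was under the minimum size. Its adjusted p was 0.103 without replicate 2 at 22 °C and 0.108 with set 4 as the only cold Col-0 arrays. CYP78A9 (AT3G61880), which promotes growth of fruits and seeds, had 0.06 (95% interval -0.22 to 0.34). CYP79A2 (AT5G05260), which turns phenylalanine into the oxime that starts benzylglucosinolate synthesis, had 0.08 and was dim. CYP51G2 (AT2G17330), a relative of the sterol demethylase gene CYP51G1 that RefSeq types as a transcribed pseudogene, had 0.24 (limma adjusted p = 0.378) and was dim as well.

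**Figure D3:**
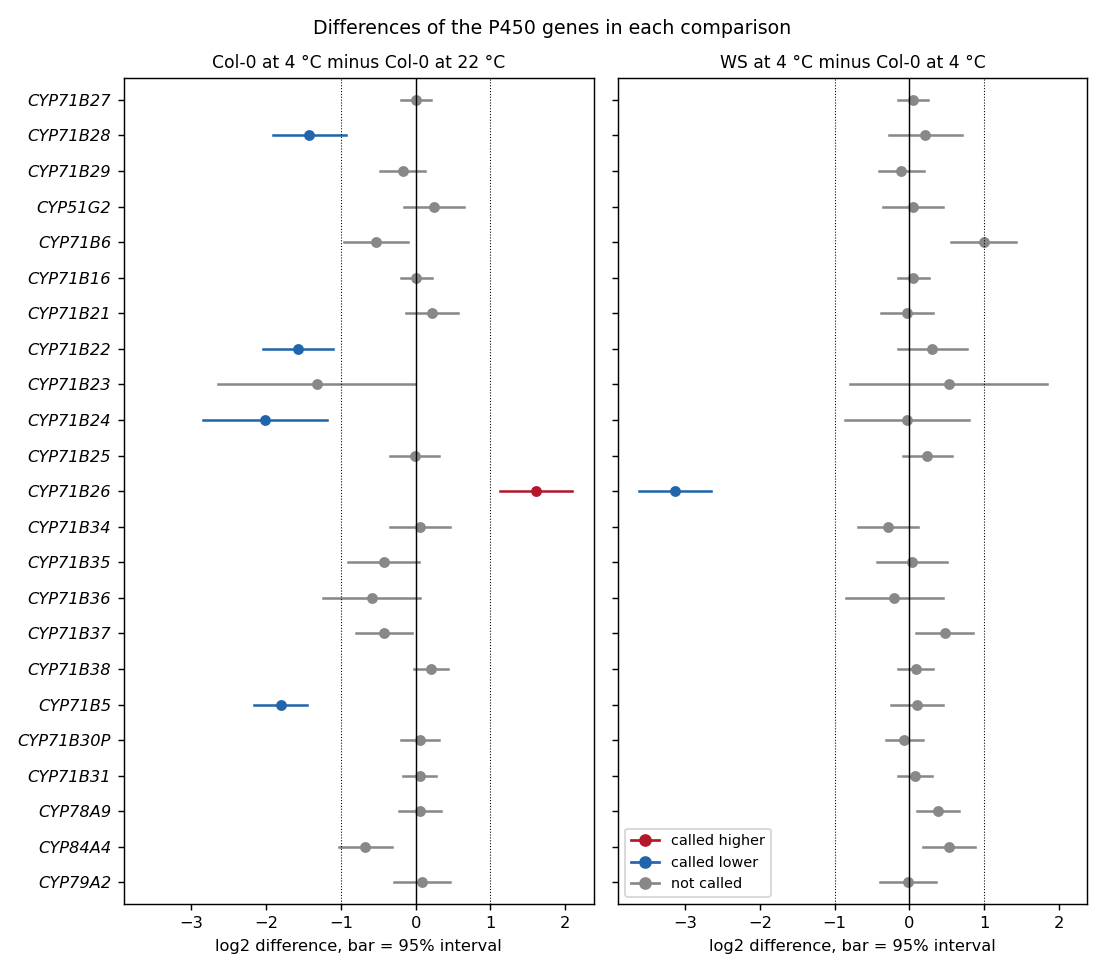
Log2 difference (horizontal axis) of each P450 gene between Col-0 at 4 °C and Col-0 at 22 °C (left panel) and between WS at 4 °C and Col-0 at 4 °C (right panel), with 95% intervals from the limma fit as bars. Colour marks genes called higher (red), called lower (blue) or not called (grey), and dotted lines mark the minimum size of 1. CYP71B26 is at 1.61 in the left panel and -3.13 in the right, and CYP71B6 is at 0.99 in the right.

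Most CYP71B members lie in rows of neighbouring genes, here defined as CYP71B genes of one chromosome with at most 9 other genes between one and the next in the RefSeq order. The longest row, on chromosome 3 from AT3G26150 to AT3G26330, holds 18 CYP71B genes, 11 of them measured. A second on chromosome 3 (AT3G53280 to AT3G53305) holds 4, with 3 measured, and one on chromosome 1 (AT1G13070 to AT1G13110) holds 5, with 3 measured. A row of 4 on chromosome 5 was not analysed here, and CYP71B6 and CYP71B38 lie outside the rows. Neighbouring P450 genes resemble each other in sequence, and how far their probe sets also catch transcripts of a neighbour was not tested.

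Within the long row of chromosome 3, CYP71B22 and CYP71B24 fell, CYP71B26 rose and 8 were not called. The log2 differences in this row ran from -2.01 to 1.61, and 7 of 11 were below 0 (median -0.42). Among all 23 members 12 were below 0, and 12% of all probe sets were called in this comparison. Without replicate 2 at 22 °C, CYP71B23 and CYP71B36 of this row stood at only -0.21 and -0.07. In the row on chromosome 1, CYP71B28 fell while its neighbour CYP71B29 (AT1G13100), at 5.34 to 5.78 on the cold Col-0 arrays and 5.76 and 5.69 at 22 °C, had -0.17 (95% interval -0.47 to 0.13). CYP71B27, the third measured gene there and typed as a transcribed pseudogene by RefSeq, gave 3.13 to 3.28 on all arrays. In the second row of chromosome 3, CYP71B5 fell. Its neighbour CYP71B30P, a pseudogene by name but typed as protein coding by RefSeq, stood at 2.90 to 3.22 on all arrays. The other neighbour CYP71B31, which acts on the floral volatile linalool, stood at 3.02 to 3.30 on all arrays. A difference near 0 at such dim signals need not mean an unchanged transcript.

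The 22 °C arrays disagreed on a few genes of the long row. Replicate 2 exceeded replicate 1 by 2.23 for CYP71B23, by 1.73 for CYP71B24, by 1.03 for CYP71B36 and by 0.78 for CYP71B22. For the other 19 members the same difference lay between -0.35 and 0.50. A difference of at least 1 in this direction was found for 3 members and for 1.67% of all probe sets. CYP71B22, CYP71B23 and CYP71B24 stand near each other in the row, and CYP71B36 lies further along it.

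**Figure D4:**
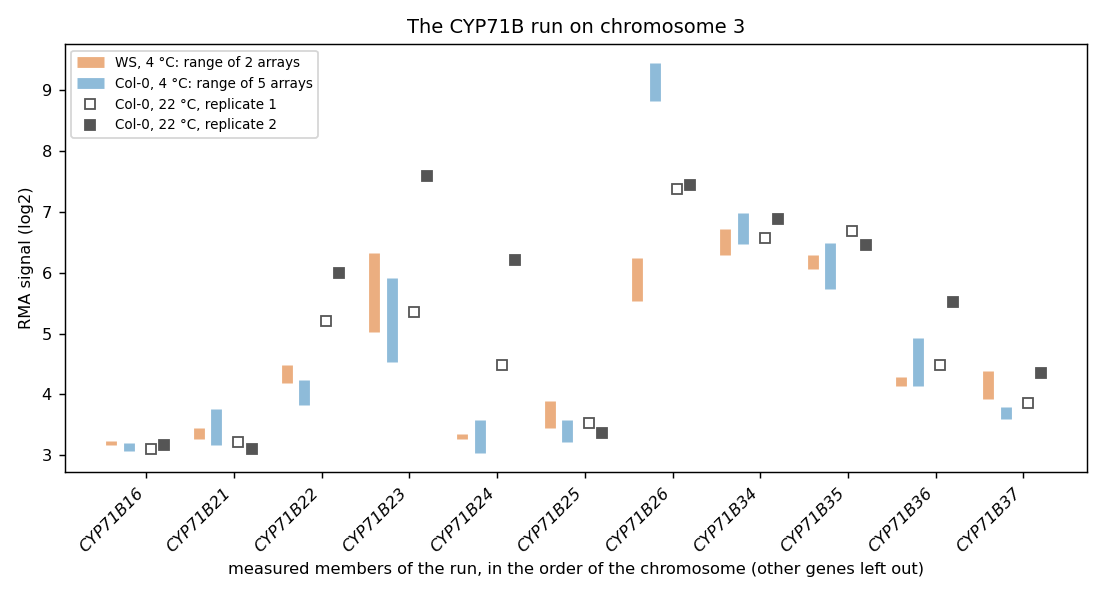
RMA signal (log2, vertical axis) of the 11 measured CYP71B genes of the long row on chromosome 3, in chromosome order and not to scale. Bars give the range of the 2 WS arrays and the 5 Col-0 arrays at 4 °C, and squares the 2 Col-0 arrays at 22 °C (replicate 1 open, replicate 2 filled). The squares are widest apart for CYP71B23 and CYP71B24, by 2.23 and 1.73.

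The title of the series names signatures of cold that Col-0 and WS share as its aim, and WS was therefore compared with Col-0 after the same 24 h at 4 °C. Of the 23 P450 genes, CYP71B26 alone was called: its signal was 8.78-fold lower in WS. That is 4.35% of the members, against 2.14% of all probe sets called in either direction, and against 1.28% called lower and 0.857% called higher. At an adjusted p under 0.05 without a minimum size 2 members passed, CYP71B26 and CYP71B6, where 4.76% of all probe sets did. The median log2 difference was 0.05 over the members and 0.01 over all probe sets.

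CYP71B26 gave 6.24 and 5.53 in cold WS, against 8.83 to 9.44 in cold Col-0, so the groups were far apart. The means were 5.89 ± 0.50 (SD, n = 2) in WS and 9.02 ± 0.25 (n = 5) in Col-0, or -3.13 on the log2 scale (SE 0.22, 95% interval -3.62 to -2.65, limma adjusted p = 5.66e-05). It was called in 17 of 17 refits, and the fold lay between 6.86 without WS replicate 2 and 11.2 without WS replicate 1. A lower transcript level in WS and a weaker match of WS transcripts to the probes cannot be told apart on these arrays. The gene's measured neighbours CYP71B25 and CYP71B34 had log2 differences of 0.24 (SE 0.15, limma adjusted p = 0.439) and -0.29 (SE 0.18, limma adjusted p = 0.448). CYP71B25 was dim, so its small difference need not mean an equal transcript level.

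CYP71B6 had the highest positive difference. It gave 8.95 and 9.15 in cold WS, against 7.80 to 8.34 in cold Col-0, and all WS arrays were higher. The log2 difference of 0.99 (SE 0.19, 95% interval 0.56 to 1.42, limma adjusted p = 0.0204) was just under the minimum size, and CYP71B6 was therefore not called. It was called without cold Col-0 replicate 3 (1.06, limma adjusted p = 0.0224) or the second set 4 array (1.06, 0.0163), and with set 4 left out (1.04, 0.0363). Without WS replicate 1 or 2 the adjusted p was 0.0768 and 0.169.

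Besides CYP71B6, the largest differences that were not called belonged to CYP84A4, CYP71B23, CYP71B37 and CYP78A9. CYP84A4 gave 4.68 on both WS arrays, against 3.95 to 4.47 in cold Col-0 (log2 0.53, limma adjusted p = 0.0959). CYP71B23 gave 5.03 and 6.32 in WS, against 4.53 to 5.92 in cold Col-0, so the groups overlapped (log2 0.52, 95% interval -0.80 to 1.85). Its log2 difference was 1.17 without WS replicate 1 and turned to -0.12 without WS replicate 2, so it has no settled direction. CYP71B37 gave 4.39 and 3.92 in WS, against 3.59 to 3.80 in cold Col-0 (log2 0.47, limma adjusted p = 0.161). CYP78A9 gave 5.30 and 5.57 in WS, against 4.92 to 5.18 in cold Col-0 (log2 0.38, limma adjusted p = 0.13). Both WS arrays lay above all cold Col-0 arrays for 4 members, CYP71B6, CYP71B37, CYP78A9 and CYP84A4, as they did for 12.1% of all probe sets. They lay below for CYP71B26 alone, as for 11.3%.

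The 4 genes that fell with cold in Col-0 were not called between the accessions after cold. CYP71B5 gave 4.89 and 4.37 in WS, against 4.30 to 4.65 in cold Col-0 (log2 0.10, 95% interval -0.25 to 0.45). CYP71B28 gave 6.23 and 5.77, against 5.37 to 6.06 (log2 0.21, interval -0.28 to 0.70). CYP71B22 gave 4.18 and 4.49, against 3.82 to 4.23 (log2 0.31, interval -0.16 to 0.77). CYP71B24 gave 3.26 and 3.34, against 3.04 to 3.58, all of them dim (log2 -0.03, interval -0.86 to 0.80). The intervals are those of the difference, and none of them reaches 1 in either direction.

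Cold WS was also set beside Col-0 at 22 °C, where accession and temperature differ together. This comparison shares its 22 °C arrays with the cold comparison in Col-0 and its WS arrays with the comparison of accessions. CYP71B5 (log2 -1.70, SE 0.19), CYP71B22 (-1.26, SE 0.25), CYP71B28 (-1.21, SE 0.26) and CYP71B24 (-2.05, SE 0.44) were lower in cold WS, with limma adjusted p values of 0.000225, 0.0048, 0.00721 and 0.00757. CYP71B26, at 6.24 and 5.53 in cold WS against 7.38 and 7.44 in Col-0 at 22 °C, was lower too (log2 -1.52, SE 0.26, limma adjusted p = 0.00222). Thus 5 of 23 members were called lower and none higher, where 7.37% of all probe sets were called lower and 6.82% higher (14.2% in all). The same 5 passed at an adjusted p under 0.05 with no minimum size, where 27.4% of all probe sets did. Both WS arrays lay above both Col-0 arrays at 22 °C for 5 members (34.5% of all probe sets) and below them for 8 (27.8%). The call of CYP71B28 was lost without WS replicate 2 (log2 -0.98, limma adjusted p = 0.0603), and that of CYP71B22 without replicate 2 at 22 °C (log2 -0.87). CYP71B24 was not called where only these groups entered the fit (limma adjusted p = 0.0723). Its signal was 4.13-fold lower with all arrays, 7.52-fold lower without replicate 1 at 22 °C and 2.27-fold lower without replicate 2.

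The shoot markers moved with temperature beside these genes. LHCB4.2 gave 9.96 and 9.34 in cold WS, 10.23 to 11.03 in cold Col-0 and 12.93 and 11.96 in Col-0 at 22 °C (log2 -1.86 for Col-0 at 4 °C minus 22 °C, limma adjusted p = 0.00123). CHLM had -1.62 in the same comparison (limma adjusted p = 0.000127). Thus the 2 measured shoot markers, of 4 listed, both fell, where 6.09% of all probe sets were called lower. The 2 measured root markers, PYK10 and EXPA7, had -0.37 (limma adjusted p = 0.3) and 0.17 (0.787). LAT52 stood at 3.59 to 4.23 on all arrays. The part of a changed share of shoot or root tissue in the P450 differences was not tested, and fewer cells of a type and less RNA per cell cannot be told apart in whole seedlings.

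Of the 17 lists of P450 genes with known roles, which hold 96 genes in all, 5 genes were measured. These were CYP79A2 of glucosinolate synthesis, CYP71B6 of the indole phytoalexin list, CYP84A4 of the phenylpropanoid list, CYP71B31 of volatile terpenes and CYP78A9 of organ growth. None was called in the cold, where 12% of all probe sets were, or between accessions, where 2.14% were. Another 66 listed genes were partners of P450 enzymes or of these and related pathways or, for 24 of them, P450 loci usually named otherwise. None of those 24 was measured. Of the 66 genes, 4 were measured, all of them pathway partners, and none was called in either comparison. With so few genes measured, the lack of calls says little about the pathways. The glucosinolate genes UGT74B1 and UGT74C1, encoding glucosyltransferases, had log2 differences of -0.71 and -0.61 in the cold (limma adjusted p = 0.0158 and 0.0272), under the minimum size. BCAT4, an aminotransferase of methionine chain elongation, had -0.24 (0.455). HCT, a transferase of lignin precursor synthesis, had -0.67 (0.00701). The reductases and cytochromes b5 that feed electrons to P450 enzymes, and the partners for abscisic acid and brassinosteroids, were not analysed here.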

How the data were processed

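The authors deposited log2 values for every probe set of each array, computed by RMA in the R package affy, per the submitters' processing notes. No versions are given in the sources used here. RMA corrects background, equalises array distributions and summarises probes, so it reduces overall shifts between arrays and compresses differences of dim probe sets. Array medians of the deposited values still ran from 5.81 to 6.06. Precision is limited by how few arrays each group has.

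The file holds 22810 probe sets, and the 64 that are controls were dropped. Gene names came from the platform annotation and the RefSeq table for TAIR10.1. They gave 1 gene for 13513 probe sets, several for 503 and none for 8730. Listed genes were matched by locus tag. Another 2 probe sets list a P450 gene together with a second gene and are not members. Models were fitted in R 4.3.3 with limma 3.58.1 (lmFit and eBayes, 1 mean per group, 6 residual degrees of freedom) and tested on simulated data. Refits left out each array, left out, isolated or added a term for set 4, blocked by replicate number, used only the compared groups, a variance trend, no dim probe sets, centred arrays or no minimum size.

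Members, lists and contrasts were chosen with earlier results of these data known. The rule for named genes took called members, in the cold at most the 12 highest and 12 lowest, the 5 largest differences not called between accessions, up to 2 others per role list and CYP71B, and the 5 members with the highest mean signal. CYP71B16, CYP71B21, CYP71B25, CYP71B27, CYP71B29, CYP71B30P, CYP71B38 and CYP51G2 were named to complete rows and counts, after their values were seen.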

Additional observations from a re-analysis of the deposited data

Results flagged for a closer look

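CYP71B26 differed between the accessions after cold. Relative to Col-0 at 22 °C its log2 difference was -1.52 in cold WS and 1.61 in cold Col-0, on opposite sides, and the difference between the cold groups was itself tested (log2 -3.13, limma adjusted p = 5.66e-05). This was the single member with calls in opposite directions. Without a WS array at 22 °C, these values do not give the response of WS to cold. A lower transcript level in WS and a weaker match of WS transcripts to the probes cannot be told apart here either.

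CYP51G2 stood out on 1 array: cold Col-0 replicate 2 gave 3.30, while the other 4 arrays of the group lay at 3.69 to 3.83. The test for a value far from the rest was made in 23 groups of 5 arrays and picks about 1 in 20 by chance. All these signals were dim.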

How the results depend on the processing

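The cold counts of 1 P450 gene higher and 4 lower lay within 1.5 times of these in each refit that was run, and so did the 5 lower in WS at 4 °C against Col-0 at 22 °C and the 1 lower in WS against Col-0 at 4 °C. In the last comparison CYP71B6 came to be called higher in WS under some settings, which gave 1 higher in place of 0 with set 4 left out (CYP71B6 at log2 1.04), with set 4 as a term (1.04), with arrays centred on their medians (1.03), with the replicate block (1.06), and with no minimum on the difference (0.99). Leaving out single arrays gave 0 to 1. The cause was not tested. The log2 difference of CYP71B6 stood close to the minimum of 1 throughout (0.89 to 1.09), but the adjusted p entered as well. Without WS replicate 1 the difference was 1.09, and the gene was still not called. With set 4 as the only cold Col-0 arrays it was 0.91 (limma adjusted p = 0.153). Without dim probe sets CYP71B24 was not among those fitted, and 3 genes fell in the cold. Without replicate 1 at 22 °C, CYP71B23 and CYP71B36 joined the genes called lower in the cold (log2 -2.44 and -1.10). In that refit CYP71B36 was also called lower in WS at 4 °C against Col-0 at 22 °C. Its log2 difference there was -1.31, against -0.79 with all arrays and -0.27 without replicate 2 at 22 °C. CYP71B24 lost its call in WS at 4 °C against Col-0 at 22 °C where only those groups entered the fit (limma adjusted p = 0.0723).

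Arrays that share a replicate number did not deviate together throughout: the correlation of their deviations from the group means ran from -0.33 to 0.29, so the numbers were not treated as pairing the samples. The replicate block ended no call of a member. Choosing the dimmer probe set of a gene changed nothing, since each member has 1. Centring the arrays took 0.01 off the median log2 difference over all probe sets in the cold comparison, -0.04 off that between accessions and -0.02 off that of cold WS against Col-0 at 22 °C.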

Other observations

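A probe set outside the rule, listed for 2 CYP71B genes at once, had a larger cold difference than any member. It gave 5.05, 5.51 and 5.28 in cold Col-0 without a set name, 6.57 and 5.09 in set 4, and 8.27 and 8.43 in Col-0 at 22 °C (log2 -2.85, SE 0.36, limma adjusted p = 0.000362). Both cold WS arrays, at 5.57 and 5.38, lay within the range of cold Col-0 (log2 -0.02, limma adjusted p = 0.987). The other such probe set, outside CYP71B, was dim on all arrays, at 3.36 to 3.76, and was not called in any comparison.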
